A study of Drosophila melanogaster with 266 samples.

Results

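The 10 genes described here encode the core of the presynaptic release machinery: the active zone scaffold genes brp, Rim and Rbp, the priming factor unc-13, the calcium sensor Syt1, the SNARE regulator cpx, the 3 neuronal SNARE genes nSyb, Snap25 and Syx1A, and the syntaxin-binding protein gene Rop. They were taken by symbol from the table of 13931 coding genes, in which each symbol had 1 row, and followed through nuclear RNA-seq libraries of genetically defined cells of adult Drosophila, with T1 neurons and photoreceptors read against the other neurons and with glia and muscle as the non-neuronal background. Every purified population carried a driver line (split-GAL4, GAL4 or, for the Gad1 driver, LexA) that expressed the nuclear tag UNC84-2XGFP. The reporter was 10XUAS_UNC84_attP2 in nearly all populations, 5XUAS_UNC84_attP18 in both muscle populations and 13XLexAop2_UNC84_attP18 with the Gad1 driver. Flies were adults 4 to 7 days of age entrained to a light-dark cycle, and no treatment was given. The paper states that sex was not sorted for the libraries of the TAPIN capture, 1 of 2 protocols described below. The exception was 1 T4.T5 driver profiled in males and females apart. Nuclei came from heads, except for the Muscles_App libraries. By the study's account these were appendage muscle libraries made after the heads had been removed, although their label gives head as the tissue.

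Of 266 libraries, 203 passed the quality control recorded in the labels, 47 were sub-optimal and 16 were controls. The libraries that passed and came from drivers for single types covered 45 optic lobe neuron types (111 libraries), T1 (2), 4 photoreceptor types (10: R1-6, R7, R8_Rh5 and R8_Rh6), 4 Kenyon cell types of the mushroom body (10), 3 PAM dopaminergic populations (6), 5 protocerebral bridge populations of the central complex (12), 3 glial types (12) and 2 muscle populations (4). Labels number the libraries of a driver as replicates but do not say which flies each came from, so p-values between libraries measure only the spread among them. Drivers were not perfectly selective: according to the study's methods the R7 driver also labelled dorsal rim R8 cells and ocellar photoreceptors, the Glia_Eg drivers some marginal glia and ocellar photoreceptors, the muscle drivers some non-muscle cells, the PB_3 driver many optic lobe cells, and the PAM_4 driver probably some non-neuronal cells.

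At a presynaptic active zone, scaffold proteins hold calcium channels next to docked vesicles. Vesicles are primed when the vesicle SNARE nSyb begins to zipper with the plasma membrane SNAREs Syx1A and Snap25, a step that depends on Unc-13 and on the Munc18 homologue Rop. Calcium binding to Synaptotagmin 1 then triggers fusion, and Complexin both holds back spontaneous fusion and helps evoked release. Drosophila photoreceptors release histamine. The outer photoreceptors do so tonically onto lamina neurons, whereas the inner photoreceptors project to the medulla. For some of the inner photoreceptors the paper proposes acetylcholine as a further transmitter. T1 is a columnar neuron whose processes run in the lamina and medulla.

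All values are TPM, the transcript share of a library scaled to a fixed total, rescaled over coding genes, in which length is already accounted for. The deposited tables hold no read counts, so depth is unknown and no counting interval can be given. Because these are pooled nuclei, fewer labelled nuclei of a type and less RNA per nucleus cannot be told apart. The summed TPM of 5 neuronal markers (elav, fne, Syn, Appl and futsch) lay between 2366 and 9910 in the optic lobe neuron libraries, between 2806 and 2862 in T1, between 4894 and 7591 in photoreceptors, between 326 and 1552 in glia and between 481 and 1478 in muscle. Photoreceptor markers summed to between 22929 and 89426 TPM in the photoreceptor libraries. Glial markers summed to between 3615 and 9001 TPM in glia, but also to between 2436 and 2989 TPM in the muscle libraries. Muscle markers summed to between 2093 and 5288 TPM in muscle, while the optic lobe neuron libraries had a median of 79.6 TPM and reached 6832 TPM in 1 library. Neither glia nor muscle was free of the neuronal marker RNAs, but elav made up much of the sum in some of these libraries. In Muscles_App elav was at 337 and 353 TPM, while Syn was at 18.3 and 19.0 TPM. The source of these RNAs was not tested. Nuclei were captured either by INTACT (1 bead capture after differential centrifugation) or by TAPIN (a tandem capture). Both T1 libraries and 2 of the 4 R1-6 libraries were INTACT, and all glia, muscle, Kenyon, PAM and protocerebral bridge libraries were TAPIN. In the 16 control libraries (input, mock captures, no-driver captures and single captures) brp lay between 282 and 1482 TPM and Syt1 between 725 and 4294 TPM, so that captures without a driver also carried this RNA.

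In dm6 the scaffold genes lie at 2R:9503765-9541565 (brp, FBgn0259246, plus strand), 3R:17872748-17916578 (Rim, FBgn0053547, minus) and 3R:15374635-15402543 (Rbp, FBgn0262483, plus). The gene unc-13 (FBgn0025726) lies at 4:867824-912331 on the minus strand, Syt1 (FBgn0004242) at 2L:2772327-2799979 on the minus strand and cpx (FBgn0041605) at 3R:4280221-4304604 on the plus strand. The SNARE gene nSyb (FBgn0013342) lies at 3L:1630348-1637752 on the minus strand, Snap25 (FBgn0011288) at 3L:24074180-24299205 on the plus strand and Syx1A (FBgn0013343) at 3R:24101600-24105763 on the minus strand. Rop (FBgn0004574) lies at 3L:4136359-4138996 on the minus strand. Reads were not stranded, and exons of Rbp, unc-13 and Syt1 overlap annotated features on the opposite strand, whose reads cannot be told apart from theirs.

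The 10 genes differed widely in level and in how much they varied among neurons. Over the 45 optic lobe neuron types, the median of the type means was 7097 TPM for cpx, 3329 for unc-13, 2596 for nSyb, 2247 for Syt1, 1788 for Syx1A, 1300.5 for brp, 1106 for Rim, 646 for Rbp, 361 for Snap25 and 72.5 for Rop. By these medians cpx RNA was the most abundant and Rop RNA the least abundant of the set. The highest optic lobe type exceeded the lowest by 49.0-fold for Syt1 and 16.2-fold for Rim, but by 4.33-fold for unc-13 and 4.19-fold for Syx1A.

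**Figure D1:**
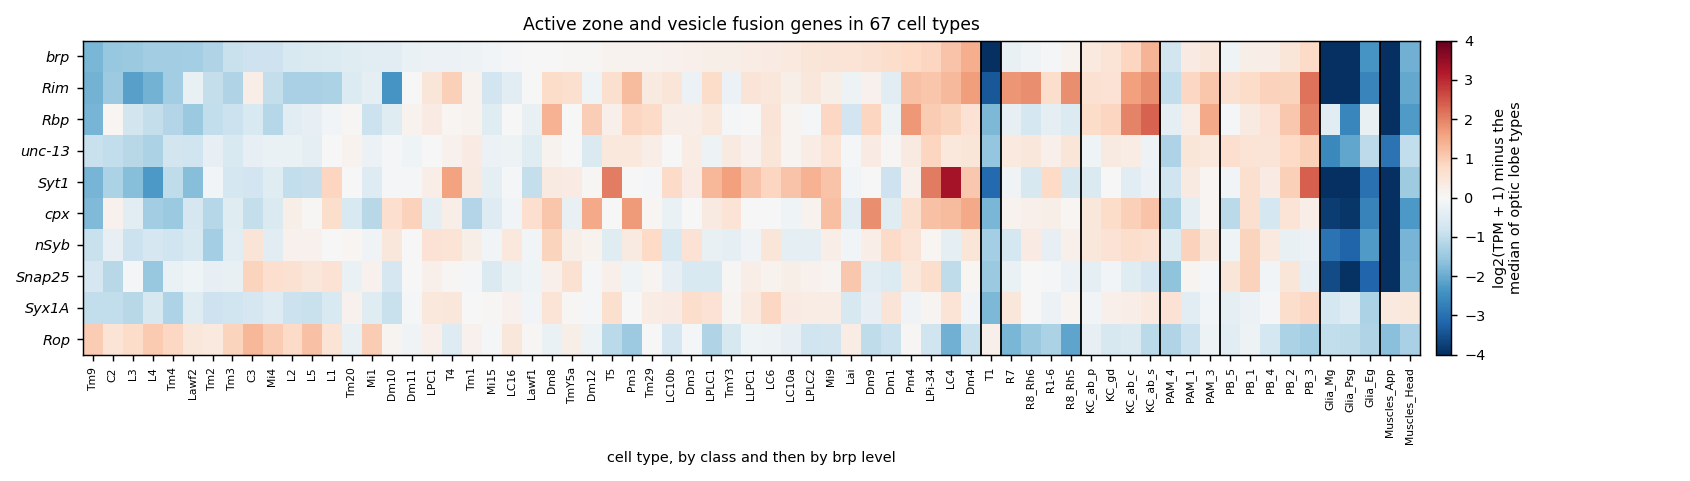
Levels of the 10 genes (rows) in the 67 cell types of the class comparison (columns, grouped by class), with colour giving log2(TPM + 1) minus the median of the optic lobe types (blue lower, red higher). T1 is dark blue in the brp row, at 30.3 TPM against an optic lobe median of 1300.5 TPM, as are Glia_Mg, Glia_Psg and Muscles_App. Glia_Eg, at 251 TPM, is a lighter blue.

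Among the optic lobe types the spread between types exceeded the spread between replicate libraries for every gene. The SD between type means on the log2(TPM + 1) scale was 1.15 for Syt1, 0.99 for Rim, 0.88 for cpx, 0.77 for Rop, 0.76 for Rbp, 0.75 for brp, 0.56 for Syx1A, 0.53 for Snap25, 0.51 for nSyb and 0.48 for unc-13. The SD between replicate libraries of a driver and protocol was 0.13 to 0.29 for the same genes. The spread between types, and the F test on it, also hold the difference between INTACT and TAPIN types. The replicate spread does not hold that difference. In limma's moderated F test over the 45 types all 10 passed the Benjamini-Hochberg adjusted threshold of 0.05, but so did 94.2% of the 11726 genes tested, so this count does not set the 10 genes apart. The ratio of the SD between types to the SD between replicates was highest for brp (5.41) and Rim (5.26) and lowest for Snap25 (2.17), beside a median of 2.52 over the 1781 genes with a mean of at least 100 TPM.

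The order of types differed from gene to gene. The orders given here and below rank INTACT and TAPIN types together, and the protocols were mostly used on different types. Among optic lobe types the median type mean of brp was 695 TPM by INTACT and 1503 TPM by TAPIN. For Rop these medians were 123 TPM by INTACT and 55.5 TPM by TAPIN. The type and the protocol therefore cannot be told apart in these orders. For brp, the Bruchpilot scaffold of the T-bar, the order ran from Dm4 (3547 TPM), KC_ab_s (3336) and LC4 (2878) down to C2 (457), Tm9 (366) and T1 (30.3). For Rim, which tethers vesicles through Rab3, PB_3 (4972 TPM), R8_Rh5 (4053) and KC_ab_s (4046) were highest, and L3 (243), Dm10 (216) and T1 (105) lowest. Rbp, the RIM-binding protein that couples calcium channels to the scaffold, was highest in KC_ab_s (3330.4 TPM) and KC_ab_c (2576) and lowest in T1 (186) and Tm9 (177). Thus KC_ab_s was among the 3 highest of 62 neuronal types for all 3 scaffold genes.

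For unc-13 the highest types were PB_3 (6481 TPM) and LPi-34 (6001), and the lowest L4 (1387) and T1 (1139). Syt1 stood out in LC4, a lobula columnar neuron, with libraries of 20007 and 24665 TPM, followed by PB_3 (11893) and LPi-34 (9582), and was lowest in L4 (456) and T1 (258). For cpx, Dm9 (25593 TPM) and Pm3 (23092) led, and Tm9 (2073) and T1 (1981) were last. The third type, Dm12, had a cpx mean of 20405 TPM made up of 2 INTACT libraries at 13594 and 13082 and 1 TAPIN library at 34540 TPM.

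Among the SNARE genes, nSyb was highest in PAM_1 (4895 TPM) and PB_1 (4843) and lowest in Tm2 (1017) and T1 (1011), which did not differ beyond their replicates. Snap25 ran from the lamina-intrinsic Lai neurons (760.2 TPM) to L4 (125) and PAM_4 (118), and Syx1A from LC6 (3194) to Tm4 (763) and T1 (510.2). Rop ran the other way from many of them: C3 (183 TPM), L5 (163) and L4 (150.1) were highest, and R7 (19.6), LC4 (18.3) and R8_Rh5 (16.1) lowest. Neighbours in these orders seldom differed beyond their libraries: of 61 neighbouring pairs per gene, the libraries of 51 (unc-13 and Syt1) to 59 (Rop) overlapped.

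In T1, brp was about as low as in the glial types Glia_Mg and Glia_Psg, while the other 9 genes lay between 76.9 and 2102 TPM. The 2 T1 libraries had 33.4 and 27.3 TPM of brp, whereas the 111 optic lobe neuron libraries had a lowest of 356, a median of 1275 and a highest of 3824 TPM. Both T1 libraries were below every optic lobe library, and also below all 16 control libraries. The difference from the optic lobe types was -5.21 on the log2(TPM + 1) scale (SE 0.78, limma with Benjamini-Hochberg adjusted p = 4.8e-05), so that T1 had 0.027 times the optic lobe level on that scale. Of the 10 genes brp was the only one called lower in T1, where 0.25% of the 10411 genes tested were called lower. Within INTACT libraries alone the brp difference was -4.46 (adjusted p = 0.0013), and it passed under all 14 alternatives.

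**Figure D2:**
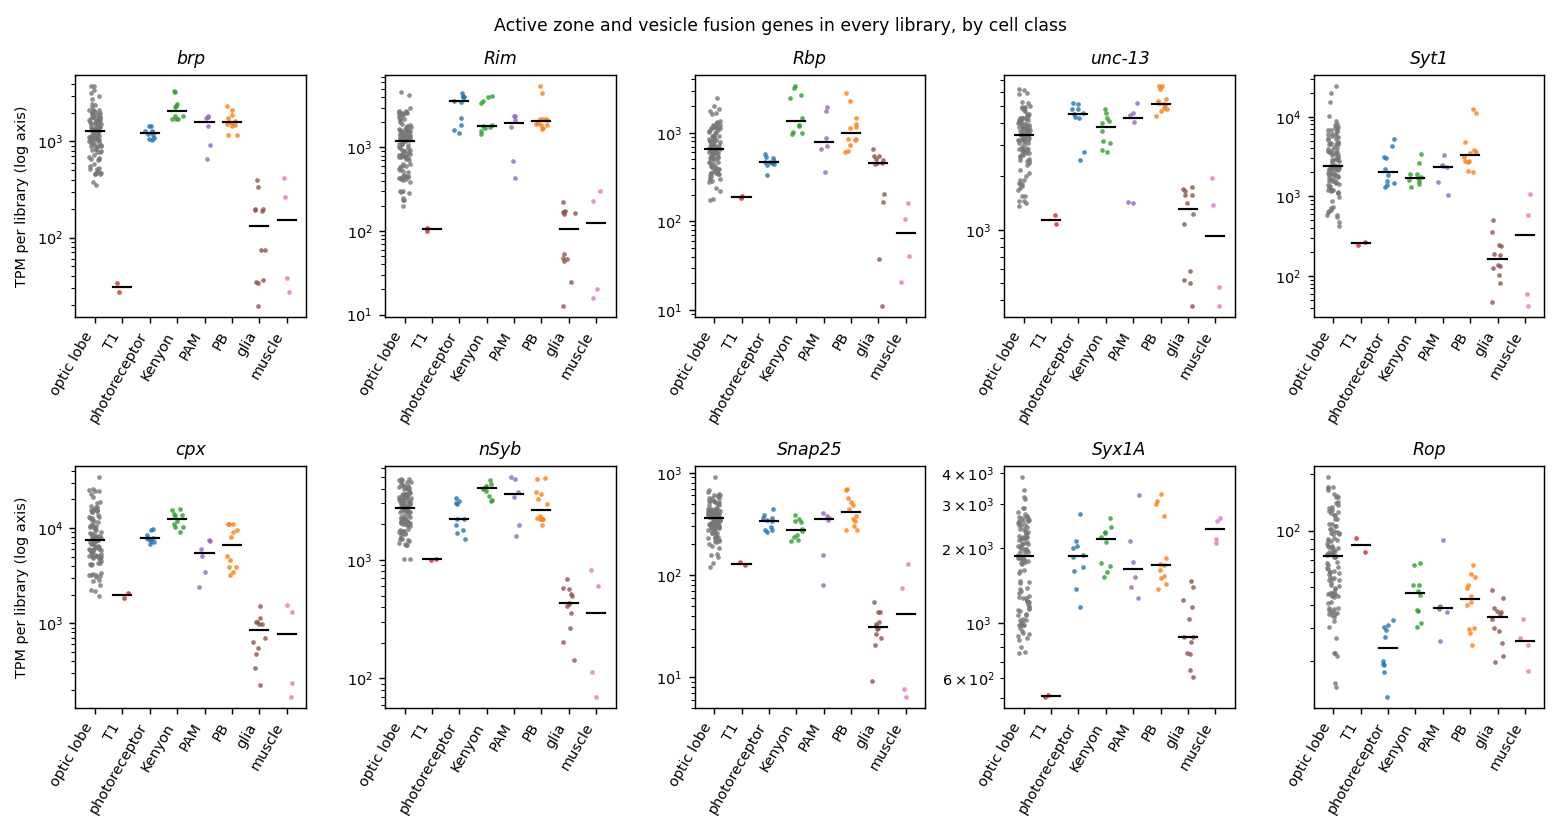
TPM of each gene (1 panel a gene, log axis) in every library that passed, by class, 1 point a library, with a line at the class median. The 2 T1 points for brp, at 33.4 and 27.3 TPM, lie below all 111 optic lobe points, while for Rop, at 76.9 and 90.8 TPM, they lie among them.

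The other genes of the set did not pass the threshold in T1 with cell types as units, 8 of them with lower means and Rop with a slightly higher one. After quantile normalization Rim (-3.60, limma adjusted p = 0.031) and Syx1A (-1.68, adjusted p = 0.033) passed as well. Rim was at 109.5 and 100.1 TPM in the T1 libraries against 200 to 4563 TPM in the optic lobe libraries, a difference of -3.21 (SE 0.99, limma adjusted p = 0.15). Syt1 was at 268 and 248 TPM against 430 to 24665 TPM, a difference of -3.23 (SE 1.09, adjusted p = 0.19). For Rim and Syt1, as for unc-13 (1207 and 1071 TPM) and Syx1A (516 and 504 TPM), neither T1 library overlapped the optic lobe range.

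The remaining genes did overlap. The T1 libraries had 2102 and 1860 TPM of cpx, 1015 and 1007 TPM of nSyb, 191 and 181 TPM of Rbp, and 133 and 126 TPM of Snap25, each at the low end of the optic lobe range. Rop, at 76.9 and 90.8 TPM, was 18th of 62 types and its difference was 0.24 (SE 0.70, limma adjusted p = 0.87). T1 was the lowest of the 62 neuronal types for 7 of the genes (brp, Rim, unc-13, Syt1, cpx, nSyb and Syx1A). How many of all genes had T1 lowest, or outside the optic lobe range, was not counted. These ranks and gaps therefore do not set the 10 genes apart. The median difference of the 10 genes was -1.71, beside 0.22 over all genes tested. Both T1 libraries were INTACT, and every gene but Rop had a lower median type mean in INTACT than in TAPIN optic lobe types. For Rim these medians were 480.4 against 1488 TPM, and for Syt1 1178 against 2897 TPM. Over 14 alternatives the T1 difference ranged from -3.60 to -2.38 for Rim and from -3.31 to -2.18 for Syt1. It ranged from -1.57 to -0.94 for unc-13 and from -1.39 to -0.94 for nSyb.

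T1 is 1 type with 2 libraries, so its spread was taken from the other classes. With libraries rather than cell types as units, limma called 9 of the 10 genes lower (all but Rop), with 4329 genes called in all. The neuronal RNA markers were present in both T1 libraries (elav at 569.7 and 622 TPM), and both the 7 glial markers and the 10 photoreceptor markers were partly present. The glial markers summed to 563 and 575 TPM in T1, against an optic lobe median of 136 TPM. Nearly all of it came from the glutamate transporter gene Eaat1 (518 and 508 TPM), the 1 glial marker called higher, while repo and wrapper were under 1 TPM. In the glial libraries themselves Eaat1 was at 3.47 to 179 TPM. The paper describes its strong expression as a feature of T1 and not of glia. The photoreceptor markers summed to 345 and 355 TPM, below the optic lobe median of 907 TPM, with ninaE at 148 and 156 TPM and Hdc under 1 TPM. The part of these RNAs in the T1 levels was not tested. Among the wider lists, none of 14 other active zone genes, none of 13 other fusion genes tested and none of 20 vesicle and endocytosis genes was called in T1 by limma, out of 1307 genes with an unadjusted p under 0.05.

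The authors' mixture model of TPM across cell types gave each gene a probability of being expressed ("on" at 0.8 or more, "off" at 0.2 or less). It placed brp on in 61 of 62 neuronal types and off in T1 (probability 0), Rim on in 61 and off in T1 (0.01), and Syt1 on in 60, with T1 off and L4 in between. Unc-13 had a probability of 0.57 in T1 and was on in the other 61 types. Rbp, cpx, nSyb and Snap25 were on in all 62. The model did not keep all of the genes to neurons. It placed brp, unc-13 and Rbp on in Glia_Eg and Muscles_Head, Rbp also in Glia_Mg, and Rim, Syt1 and Snap25 in Muscles_Head. Syx1A was on in both muscle populations and Rop in all glia and muscle, while cpx and nSyb were on in no glial or muscle type. For Syx1A the model's lower level was itself 1043 TPM, beside an upper level of 2122 TPM, so its 18 types called off were not types without the RNA.

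Photoreceptor libraries lay within the optic lobe range for all 10 genes, apart from 1 library for Rop, and the class mean differed by test for 2 of them, Rim upward and Rop downward. Of the 10 genes, 1 was called higher and 1 lower, where 37.7% of all genes tested were called in either direction. Rim was at 1500.1 and 1619 TPM (INTACT) and 2225 and 1846 TPM (TAPIN) in R1-6, 3571 and 4011 in R7, 4130.0 and 3977 in R8_Rh5, and 3537 and 4484 in R8_Rh6. All 10 libraries were above the optic lobe median of 1193 TPM, and R7 and both R8 types ranked 2nd to 5th of 62 types, but 34 of the 111 optic lobe libraries were at or above the lowest photoreceptor library. The difference was 1.73 (SE 0.51, 3.31-fold, limma adjusted p = 0.0058). It was 1.51 with an adjusted p of 0.097 within INTACT libraries alone, where R1-6 was the only photoreceptor type, and 1.30 (adjusted p = 0.022) within TAPIN libraries.

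Rop, the Munc18 homologue, was low in every photoreceptor library. It was at 26.8, 29.5, 30.6 and 31.3 TPM in R1-6, 20.1 and 19.1 in R7, 19.4 and 12.8 in R8_Rh5, and 33.1 and 17.4 in R8_Rh6, against an optic lobe median of 73.2 and a range of 14.5 to 194 TPM. All 10 were below that median, while 8 of the 111 optic lobe libraries were at or below the highest photoreceptor library. The difference was -1.66 (SE 0.36, 0.317-fold, limma adjusted p = 1.9e-04), and it passed under all 17 alternatives, between -2.06 (INTACT only) and -1.19 (TAPIN only). The photoreceptor types took ranks 55, 59, 60 and 62 of 62 for Rop.

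The scaffold gene brp did not pass in photoreceptors: its libraries lay between 1045 and 1458 TPM, close around the optic lobe median of 1275 TPM. Neither Rbp (335 to 582 TPM), unc-13 (2475 to 5139), Syt1 (1330 to 5185), cpx (6809 to 9716), nSyb (1502 to 3339), Snap25 (262 to 444) nor Syx1A (1161 to 2723) passed. Within the class, the outer photoreceptors R1-6 had more Syt1 (3004 to 5185 TPM) than R7 and R8 (1330 to 2185), and the R8 types more nSyb (2987 to 3339.2) than R7 (1502 and 1679). These orders were read from the libraries and not tested.

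**Figure D3:**
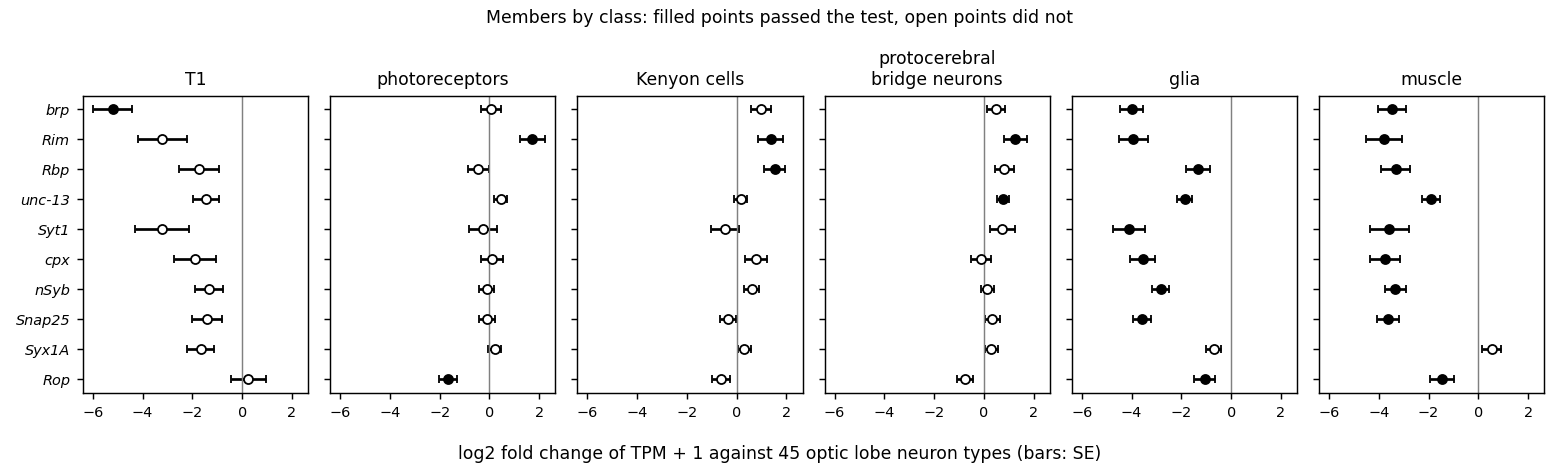
Difference of each class from the 45 optic lobe neuron types for each gene, as log2 fold change of TPM + 1 with its SE. Filled points passed limma with an adjusted p under 0.05. Rop in photoreceptors is at -1.66 and Rim at 1.73, and brp in T1 at -5.21.

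Around the 10 genes, photoreceptors differed from optic lobe neurons in partner genes of the active zone. Of 14 other active zone genes 3 were higher and 7 lower, with a list median of -0.74 beside -0.49 over all genes. The scaffold gene dysc was higher by 1.72 (SE 0.31), and Fife, a Rim-related scaffold gene, was lower (-4.23, SE 0.96). CASK, a membrane-associated guanylate kinase gene, was lower as well (-2.17, SE 0.24).

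These shares of called genes lay above the 37.7% over all genes for the active zone list and close to it for the next 2 lists. Of 13 other fusion genes 1 was higher (Rph, the Rabphilin homologue, 2.52, SE 0.45) and 4 were lower, among them Esyt2, an extended synaptotagmin gene (-3.22, SE 0.65). The limma adjusted p-values of these 5 named genes were at most 3.4e-04. Of 20 vesicle and endocytosis genes 2 were higher, including Syn (synapsin, 1.60, SE 0.36), and 6 were lower. Fife also differed between protocols within R1-6, by 2.11 higher in INTACT than TAPIN libraries (limma adjusted p = 1.2e-15).

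The relatives of the SNARE and Rop genes went in both directions in photoreceptors. Syx4, a plasma membrane syntaxin, had a mean of 221 TPM in R1-6 and of at least 24.4 TPM in every photoreceptor type, against at most 11.1 TPM in any optic lobe type, a difference of 4.60 (SE 0.44, limma adjusted p = 1.7e-13). Snap24 was between 32.7 and 61.5 TPM against an optic lobe median of 176 TPM (-1.93, SE 0.44, adjusted p = 3.8e-04), and Snap29 was lower by the same test (-1.43, adjusted p = 0.021). Syb (34.1 to 91.4 TPM) and Slh (8.34 to 12.1 TPM), relatives of nSyb and Rop, did not pass. In T1 none of these 5 genes was called, with 386 TPM of Snap24, 63.4 TPM of Slh, 54.4 TPM of Snap29, 50.4 TPM of Syb and 0.77 TPM of Syx4.

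Among central brain neurons, Rim and Rbp were called higher in Kenyon cells and Rim and unc-13 in protocerebral bridge neurons, all 4 of which lost their call within TAPIN libraries, the only ones these classes had. In Kenyon cells 2 of the 10 genes were called higher, where 3.32% of genes tested were called higher. Rbp was at 2665 and 2488 TPM in KC_ab_c, 3415 and 3245 in KC_ab_s, 964 and 1202 in KC_ab_p, and 991 to 1482 in KC_gd, against an optic lobe median of 659 TPM. Its difference was 1.53 (SE 0.42, limma adjusted p = 0.0081). Rim was at 1432 to 4081 TPM, a difference of 1.36 (SE 0.51, adjusted p = 0.048).

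The Kenyon cell calls depended on single types and on the processing: that of Rim was lost in 10 of 16 alternatives and that of Rbp in 3. Without KC_ab_c the Rbp difference was 1.36 (adjusted p = 0.071) and without KC_ab_s it was 1.24 (0.12). Within TAPIN libraries it was 1.10 (0.053). Rim was 1.21 (0.19) without KC_ab_c, 1.13 (0.24) without KC_ab_s, 1.56 (0.056) without KC_gd and 0.89 (0.20) within TAPIN libraries.

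In protocerebral bridge neurons 2 of the 10 genes were called higher, where 2.92% of genes tested were. Rim was at 5495 and 4450 TPM in PB_3 and between 1680 and 2196 TPM in the other 10 libraries (difference 1.25, SE 0.46, limma adjusted p = 0.027). The priming gene unc-13 lay between 4355 and 6482 TPM in all 12 libraries (difference 0.78, SE 0.24, adjusted p = 0.0098). Without PB_3, the driver that also labelled optic lobe cells, Rim was 0.98 (adjusted p = 0.15) and unc-13 0.71 (0.0502), and within TAPIN libraries they were 0.77 (0.18) and 0.51 (0.071). In PAM neurons none of the 10 genes was called by limma, where 27.3% of genes tested were called in either direction and 4234 had an unadjusted p under 0.05. In the 6 PAM libraries muscle markers summed to between 261 and 975 TPM (7 of 7 called higher) and glial markers to between 386 and 4908 TPM (3 of 6 tested called higher), beside optic lobe medians of 79.6 and 136 TPM, and their part was not tested.

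Among the wider lists, dysc was higher in Kenyon cells (1.62, SE 0.31) and in protocerebral bridge neurons (0.67, SE 0.28), and Ca-beta, a calcium channel subunit gene, was higher in Kenyon cells (1.15, SE 0.35), which made 2 of 14 other active zone genes higher in Kenyon cells and 1 of 14 in protocerebral bridge neurons. Of 13 other fusion genes tested, 3 were lower in Kenyon cells, 4 in protocerebral bridge neurons and 1 in PAM neurons, where 17.7%, 36.3% and 19.4% of all genes tested were called lower. The list medians (-0.54, -0.50 and -0.52) were near those of all genes (-0.60, -0.69 and -0.48), so these counts do not set the fusion genes apart. Syt7 was the 1 fusion gene higher in protocerebral bridge neurons (0.65, SE 0.26), and 1 of the 14 active zone genes was lower in PAM neurons. The lower fusion gene in PAM neurons was comt, the NSF gene (-1.56, SE 0.31). Of 20 vesicle and endocytosis genes 3, 3 and 4 were lower in the same order of classes, among them nwk in Kenyon cells (-1.80, SE 0.52) and AP-2sigma in PAM neurons (-1.98, SE 0.61). Esyt2 was lower in protocerebral bridge neurons (-2.27, SE 0.59). Each passed limma's test with an adjusted p of at most 0.047.

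Of the 5 SNARE and Rop relatives, Syb was lower in Kenyon cells (-0.82, SE 0.31) and higher in PAM neurons (1.2, SE 0.35). Slh and Snap29 were lower in PAM neurons (-1.66 and -1.92) and in protocerebral bridge neurons (-1.87 and -1.80), where Snap24 was lower too (-1.15). The adjusted p-values of these limma tests were at most 0.047.

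In glia 9 of the 10 genes were called lower than in optic lobe neurons, where 16.5% of genes tested were called lower. The largest differences were those of Syt1 (-4.12, SE 0.64), brp (-3.99, SE 0.46), Rim (-3.94, SE 0.58), Snap25 (-3.57, SE 0.37) and cpx (-3.55, SE 0.50), each with a limma adjusted p of at most 3.3e-07. Smaller ones were those of nSyb (-2.83), unc-13 (-1.88), Rbp (-1.33, adjusted p = 0.028) and Rop (-1.06, adjusted p = 0.043). Rop lost its call in 7 of 15 alternatives and Rbp in 3.

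The glial types were not alike. Brp was at 189 to 397 TPM in the 6 Glia_Eg libraries, at 33.4 and 34.5 in Glia_Mg, and at 35.9, 19.4, 75.0 and 73.8 in Glia_Psg, so that T1 lay within the range of the glia. Rbp stayed at 451 to 657 TPM in Glia_Eg and at 494 and 445 in Glia_Mg, and fell to between 11.1 and 202 TPM in Glia_Psg. The neuronal gene futsch was, like brp, higher in Glia_Eg (204 to 352 TPM) than in the other glial libraries (23.8 to 75.0 TPM), whereas Rbp was as high in Glia_Mg as in Glia_Eg. The neuronal gene elav was between 199 and 432 TPM over all glial libraries. The photoreceptor opsin gene ninaE was at 536 to 2049 TPM in the glial libraries. The part of these RNAs in the glial levels was not tested.

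In muscle 9 of the 10 genes were called lower, where 11.9% of genes tested were called lower, but the 2 populations differed widely. Brp was at 26.9 and 37.9 TPM in Muscles_App and at 415 and 267 TPM in Muscles_Head, nSyb at 69.3 and 113 against 829.1 and 607 TPM, and Snap25 at 6.38 and 7.65 against 129 and 75.1 TPM. Summed neuronal markers and ninaE (9.31 and 15.4 TPM in Muscles_App, 1488 and 3109 TPM in Muscles_Head) were higher in Muscles_Head too, and their part was not tested. Differences from optic lobe neurons were -3.46 (SE 0.56, limma adjusted p = 8.9e-07) for brp, -3.34 (SE 0.41, adjusted p = 1.2e-09) for nSyb and -1.46 (SE 0.50, adjusted p = 0.021) for Rop. Without Muscles_App, 4 of the genes were called (Rbp, cpx, nSyb and Snap25) and brp was -1.79 (adjusted p = 0.096).

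Syx1A was the 1 gene not called in either background. It was at 2088 and 2572 TPM in Muscles_App and at 2640.4 and 2174 in Muscles_Head, above the optic lobe median of 1849 TPM in all 4 libraries (difference 0.53, SE 0.38, limma adjusted p = 0.33). In glia it was at 610 to 1470 TPM (difference -0.71, SE 0.32, adjusted p = 0.082), above both T1 libraries. In glia it was called lower in 6 of 15 alternatives, among them TAPIN libraries only (-1.07, adjusted p = 2.1e-04), and in muscle called higher in 3 of 14. In the annotation, the Syx1A gene (3R:24101600-24105763, minus strand) lies inside the span of eIF4EHP, a translational repressor gene on the same strand, and shares 447 exon bases with it at the 3′ end (3R:24101600-24102046). Reads from those bases could belong to either gene, and their split is an estimate. The Syx1A-RA transcript does not contain the shared bases: its mean was 566 and 727 TPM in the 2 muscle populations, 116 to 249 TPM in glia, 157 TPM in T1, 656.6 to 1084 TPM in photoreceptors and a median of 374 TPM (0 to 858) in optic lobe types, on the scale of the transcript table before rescaling to coding genes. On this transcript the range of glia included T1.

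Among the related genes, Syx4 and Syb were higher in both backgrounds. Syx4 was higher by 3.53 (SE 0.51) in glia and by 2.92 (SE 0.61) in muscle, and Syb, the broadly used synaptobrevin, by 1.57 (SE 0.35) and 1.33 (SE 0.43), with limma adjusted p-values of at most 0.013. Of 14 other active zone genes, 13 were lower in glia and 11 in muscle, including stj, a calcium channel subunit gene (-5.78 in glia and -4.29 in muscle). Of 13 other fusion genes tested, 8 were lower in glia and 7 in muscle, including Syt4 (-4.81 in muscle). The active zone list medians were -3.51 in glia and -3.55 in muscle, beside -0.28 and -0.17 over all genes. Of 20 vesicle and endocytosis genes, 13 were lower and 2 higher in glia, the higher ones being Amph (2.31, SE 0.47) and sky (1.56, SE 0.32), and nwk was lower (-5.22). In muscle 12 were lower, including Syngr (-4.74), and 1 was higher, Amph (2.20, SE 0.57). stnA and stnB, which are read from 1 dicistronic RNA, carried identical values.

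The level of these genes moved with the capture protocol as well as with the type. Over 17 optic lobe types with INTACT and 30 with TAPIN libraries, the median type mean of brp was 695 against 1503 TPM, of Rim 480.4 against 1488, of Syt1 1178 against 2897 and of Syx1A 1029 against 2196 TPM, whereas Rop went from 123 to 55.5 TPM. Snap25 was nearly level, at 349.8 and 370.4 TPM. The protocols were mostly used on different types, so the type and the protocol cannot be told apart in these medians.

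The types profiled both ways gave mixed answers. In Lawf1, where the drivers differed too, brp was at 643 and 673 TPM by INTACT and at 1926 and 1960 TPM by TAPIN, and Rop at 96.5 and 96.2 against 60.3 and 46.1 TPM. In Dm12, of 1 driver, brp was at 1069.6 and 1065 TPM by INTACT and 1867 TPM by TAPIN. In R1-6, of 1 driver, brp was at 1169.6 and 1271 TPM by INTACT and 1274 and 1202 TPM by TAPIN. There limma called 2 of the 10 genes (9.41% of the 11726 genes tested were called in either direction): unc-13, at 2723 and 2475 against 5094 and 5139 TPM (INTACT minus TAPIN -0.98, SE 0.13, adjusted p = 2.4e-09), and Syx1A, at 1679 and 1833 against 1366 and 1161 TPM (0.48, SE 0.13, adjusted p = 0.0069). The Syx1A call was lost when only these 4 libraries were fitted.

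Rop and most of the other 9 genes were ordered differently across the neurons. Over 57 types other than T1 and photoreceptors, Pearson's r of log2(TPM + 1) was above 0 for 35 of the 36 pairs that did not include Rop, with the highest for brp and Rim (0.81). With Rop it was below 0 for 8 of 9 pairs, and lowest with brp (-0.74) and Syx1A (-0.73). The pair above 0 was Snap25 and Rop (0.20). Points in such a correlation share the protocol. The within-protocol values cover optic lobe types only, and over all 45 optic lobe types r of brp and Rop was -0.76. Within the 17 INTACT optic lobe types 6 of 9 pairs with Rop were below 0 (brp -0.28), and within the 30 TAPIN optic lobe types 7 of 9 (brp -0.56). The pair nSyb and Rop, at -0.21 over the 57 types, was above 0 within INTACT (0.35) and within TAPIN types (0.33). Snap25 and Rop were above 0 within each protocol too (0.068 and 0.31). Of the 36 other pairs, 36 were above 0 within these INTACT types (median r 0.41) but 29 within these TAPIN types (median r 0.23, lowest -0.53). Photoreceptors, left out of the correlation, had low Rop at middling brp.

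**Figure D4:**
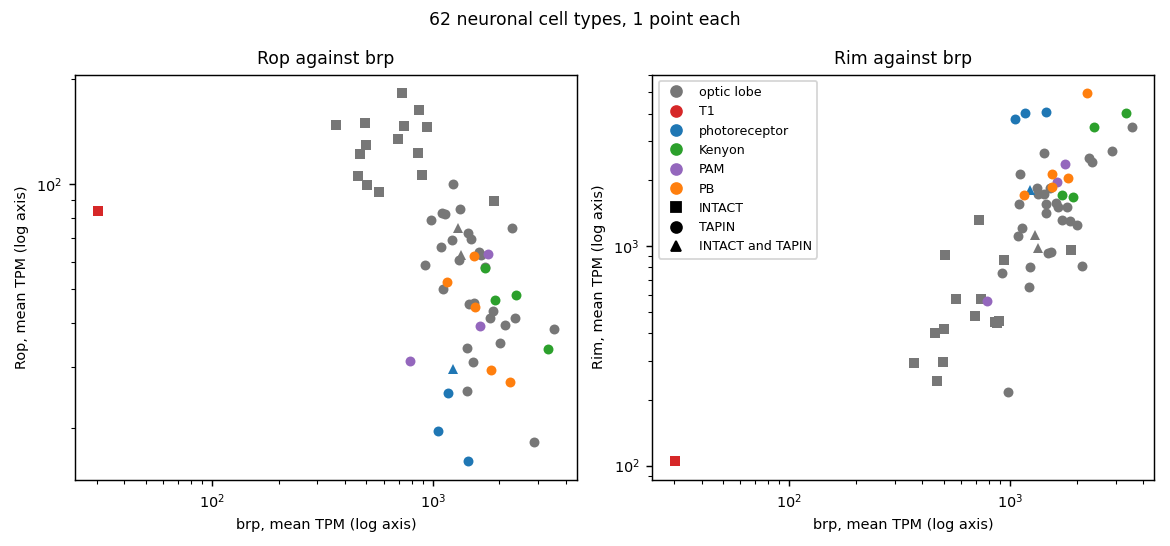
Mean TPM of Rop (left) and Rim (right) against mean TPM of brp in the 62 neuronal types, log axes, 1 point a type, coloured by class, with the marker giving the capture protocol. T1 lies apart at 30.3 TPM of brp, with 83.9 TPM of Rop and 105 TPM of Rim, and the INTACT types (squares) lie at lower brp and higher Rop than most TAPIN types (circles).

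The genes whose pattern was most like that of a member were found as those with the highest r over the same 57 types among 9760 genes. For brp they included mmd (0.88) and cac (0.87), the presynaptic calcium channel gene. For Rim they began with mmd, for unc-13 with mmd and cac, and for cpx with cac. Rab3, the vesicle GTPase gene, led for nSyb (0.73), and qvr for Syt1. For Rop the list began with alphaSnap (0.94), the SNARE disassembly cofactor gene, and TSG101 (0.90). The gene most like Syx1A was eIF4EHP (0.91), with which it shares exon bases. For Snap25, whose gene spans 3L:24074180-24299205, they were CG40178, CG17684 and dpr21.

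Which transcripts made up a gene also differed between the classes. These shares are the authors' estimates from single-end reads and were described without a test, and the transcripts named were chosen after their shares were seen. Some shares differed between protocols within 1 driver. In R1-6 unc-13-RF was at 35.1 and 34.9% by INTACT and at 56.0 and 53.8% by TAPIN, while cpx-RK was at 0 by either. The transcript unc-13-RB, whose annotated start is at 4:893565 on the minus strand, made up 41.0 to 50.9% of unc-13 RNA in the 4 Kenyon cell types, 10.4 to 19.2% in PAM neurons and 27.0% in T1, but a median of 0.206% and at most 7.10% (Tm29) in the optic lobe types. In glia it was 10.9 to 18.3%. No optic lobe, photoreceptor or protocerebral bridge type reached the lowest Kenyon cell or T1 share.

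For nSyb, the transcript nSyb-RJ made up 38.8 to 49.9% in Kenyon cells, 5.84 to 42.2% in PAM neurons and 21.9% in T1, against at most 14.3% (Tm9) in the optic lobe. For cpx, cpx-RK made up 35.2 and 38.0% in the 2 T1 libraries (664 and 639.6 TPM), against a median of 0 and at most 11.4% (Tm9) in the optic lobe types. T1 thus had the highest share of this transcript of all 62 neuronal types, at the lowest level of the gene. The T1 and Tm9 libraries were all INTACT, and the part of the protocol in these shares was not tested.

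**Figure D5:**
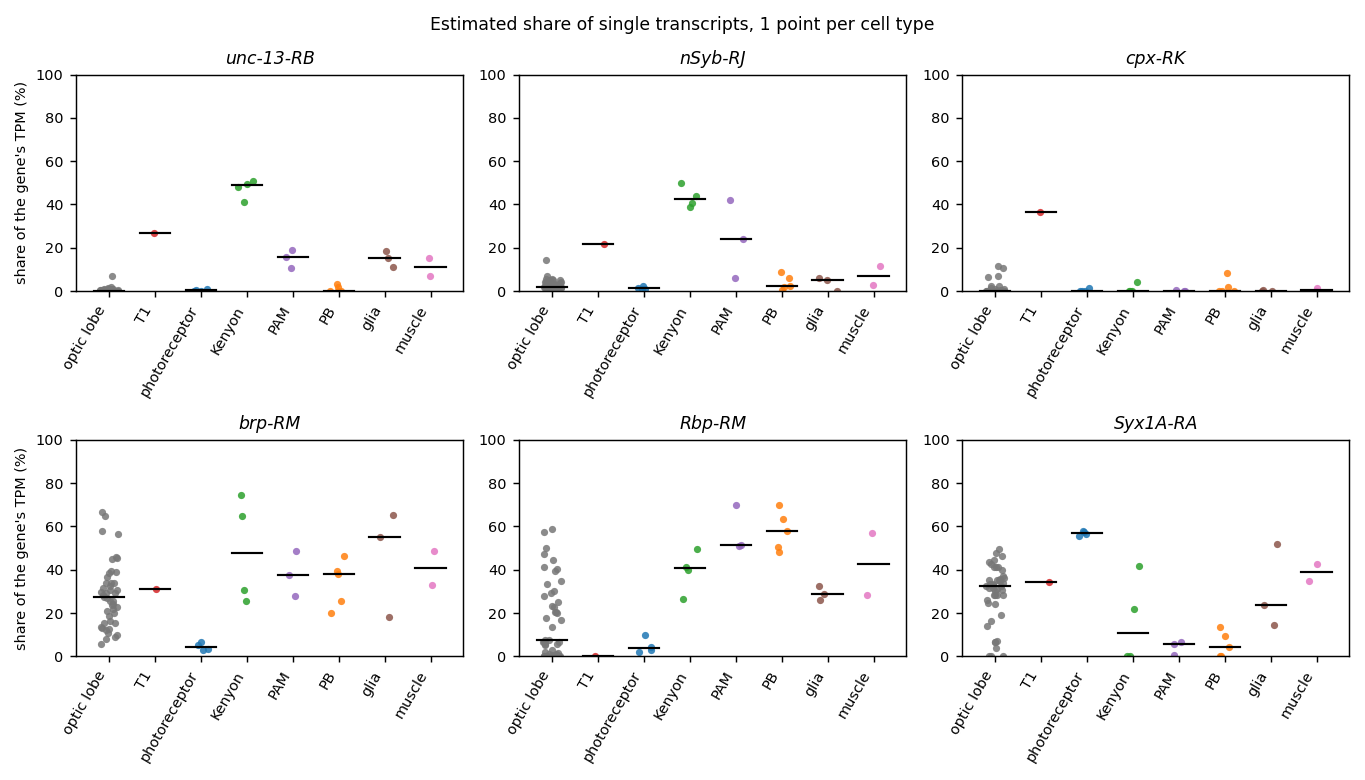
Share of a gene's RNA estimated for a single transcript (percent of the gene's TPM), by class, 1 point a cell type, with a line at the class median. Kenyon cells lie at 41.0 to 50.9% for unc-13-RB, and T1 at 36.6% for cpx-RK.

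Photoreceptors lay at the ends of the range for 2 transcripts. The transcript brp-RM was 2.86 to 6.77% of brp RNA in the photoreceptor types against 5.48 to 66.5% in the optic lobe types (median 27.5%) and 25.5 to 74.4% in Kenyon cells, with LPLC2 the 1 optic lobe type below R8_Rh6. Syx1A-RA was 55.5 to 58.0% of Syx1A RNA in photoreceptors against at most 49.6% in the optic lobe types. For Rbp, the transcript Rbp-RM was 48.3 to 69.9% in protocerebral bridge neurons and 50.9 to 70.0% in PAM neurons, against a median of 7.52% in the optic lobe types, which ranged up to 59.0%, and 0.027% in T1. For Rop, the transcript Rop-RB was 100% of the estimated RNA in all optic lobe types.

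The sex and transmitter comparisons gave few differences in this set. Between males and females of the T4.T5 driver, T4 and T5 being the motion-sensing columnar neurons, limma called none of the 10 genes, where 0.324% of the 11726 genes tested were called in either direction and 458 had an unadjusted p under 0.05. Brp was at 1085 and 863 TPM in males and 843 and 966 in females. Between the broad ChAT driver for cholinergic neurons and the Gad1 driver for GABAergic neurons 2 of the 10 were called, where 9.71% of genes were. The cpx level was 10289 and 11004 TPM with ChAT against 18723 and 13961 TPM with Gad1 (-0.60, SE 0.17, limma adjusted p = 0.010), and Syx1A 3110 and 3256 against 2563 and 2213 TPM (0.42, SE 0.13, adjusted p = 0.026). Both calls were lost when only the compared libraries were fitted (adjusted p = 0.10 for cpx and 0.17 for Syx1A). Without the first Gad1 library the cpx difference was -0.39 (adjusted p = 0.26), and without the second the Syx1A difference was 0.31 (0.31). The 2 drivers also differed in reporter, and 3 of 7 glial and 2 of 7 muscle markers were called higher with ChAT, with list medians of 1.00 and 1.38, whose part was not tested.

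Against the VGlut driver for glutamatergic neurons limma called none of the 10 genes, either with ChAT (8.75% of genes called in either direction, 2721 with an unadjusted p under 0.05) or with Gad1 (4.02%, and 1490). These 3 contrasts share their libraries pairwise.

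Whole tissue, dissected rather than captured, was read from total RNA and not tested against the purified nuclei. In 4 lamina libraries cpx was at 7286 to 10732 TPM and Snap25 at 372 to 450.2 TPM, and in 4 optic lobe libraries cpx at 4311 to 4733 TPM and Snap25 at 871 to 946 TPM. Brp was at 434 to 578 TPM in lamina and 636 to 766 TPM in optic lobe, and Rop at 78.1 to 87.9 and at 128 to 145 TPM.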

How the data were processed

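Nuclei were purified by INTACT or TAPIN and their RNA sequenced as single-end reads of 50 nt from an unstranded library. Per the study's methods the authors trimmed 5 nt, estimated abundance with kallisto 0.43.1 on Ensembl release 91 transcripts, and rescaled coding genes after removing spike-ins, the tag and rRNA. The deposited TPM values are these estimates, with no counts, so depth is unknown. The deposited score is the authors' probability, from a mixture model, that a gene is on. Of the columns of samples, 0 had no match to a sample.

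Log2(TPM + 1) was fitted with limma 3.58.1 in R 4.3.3 for the genes that reached 10 TPM in 2 or more units. Classes were compared over cell type means (67 types), and drivers over libraries. Tests were two-sided with Benjamini-Hochberg adjusted p under 0.05. Log2 fold changes understate changes of low genes. Fits were tested on simulated data. Coordinates are dm6, Ensembl release 115. Tables were made with Python 3.11.15, pandas 2.3.3, numpy 2.4.6 and matplotlib 3.10.9.

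The 10 genes and the gene lists were chosen with earlier results of these data known. Named beyond them are at most 3 list genes per direction with the largest changes, the relatives Syb, Snap24, Snap29, Syx4 and Slh, the 3 highest and 3 lowest types, and genes from the 3 most like each member in pattern, of which 1 is not reported here. Alternatives were other pseudocounts, no filter, quantile normalization, libraries as units, a replicate block, 1 protocol only, another reference group, the authors' means, TPM of all genes, and leaving out replicates or types. Sub-optimal libraries entered no test.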

Additional observations from a re-analysis of the deposited data

Results flagged for a closer look

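Among 40 groups of 4 to 10 values, 4 held a value far from the others by Dixon's ratio, where chance alone gives about 1 in 20 groups. Rim in R1-6 had a mean of 1797 TPM, while the other 3 photoreceptor types lay between 3791 and 4053 TPM. In PB_3 the mean of Rim was 4972 TPM against 1698 to 2117 TPM in the other 4 protocerebral bridge populations, and the mean of Syt1 was 11893 TPM against 2066 to 4316 TPM. The third R1-6 library had 9716 TPM of cpx, and the other 3 had 7719 to 7872 TPM.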

How the results depend on the processing

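Values are numbers of the 10 genes called, or numbers of all genes called where so said. With a pseudocount of 10 TPM 1 gene was called in Kenyon cells and 1 for Gad1 against VGlut, and 197 of all genes in T1 and 716 for Gad1 against VGlut. With no filter 1 was called in Kenyon cells, and 75 of all genes in T1 and 68 between the sexes. After quantile normalization 3 were called in T1, 1 in Kenyon cells, 0 in protocerebral bridge neurons, 0 for ChAT against Gad1 and 1 for ChAT against VGlut, with 198, 893 and 1659 of all genes in T1, Kenyon cells and protocerebral bridge neurons. With libraries as units 6 were called in photoreceptors, 9 in T1, 10 in Kenyon cells, 8 in PAM and 9 in protocerebral bridge neurons, with 7387, 4329, 7310, 7198 and 8023 of all genes, and 7123 in glia and 6313 in muscle. With a replicate block added these were 7, 9, 10, 8 and 9, with 7186, 4413, 7390, 7269 and 8108 of all genes, and 7172 and 6368. INTACT libraries alone gave 1 in photoreceptors and 5 of all genes in T1. TAPIN libraries alone gave 0 in Kenyon cells and 0 in protocerebral bridge neurons, with 1011 and 1715 of all genes, and 1685 in PAM neurons. The authors' means gave 1 in Kenyon cells. Against all other neurons 1 was called in Kenyon cells and 1 in protocerebral bridge neurons, with 72 of all genes in T1 and 1393 in Kenyon cells. With only the compared libraries 0 were called for ChAT against Gad1, with 205 of all genes, and 688 for the protocols in R1-6, 0 between the sexes, 82 for ChAT against VGlut and 229 for Gad1 against VGlut. The Rop difference in T1 reversed, to -0.52 in INTACT libraries and -0.17 after quantile normalization. The cause of these changes was not tested.

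Leaving out single replicates or types gave 0 to 2 genes in Kenyon cells, 0 to 3 in protocerebral bridge neurons, 4 to 9 in muscle, 1 to 2 for the protocols in R1-6, 0 to 1 for ChAT against Gad1 and 0 to 1 for Gad1 against VGlut. Of all genes it gave 22 to 53 in T1, 428 to 2485 in Kenyon cells, 1332 to 2431 in PAM neurons, 2227 to 4099 in protocerebral bridge neurons, 1429 to 2707 in muscle, 662 to 970 for the protocols, 15 to 43 between the sexes, 532 to 1148 for ChAT against Gad1, 335 to 1036 for ChAT against VGlut and 258 to 337 for Gad1 against VGlut.

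Over 4560 pairs of drivers the deviations of same-numbered libraries correlated with a median of 0.00064 (-0.32 to 0.29), and 2.28% of pairs were over 0.1. In the pairs compared here the correlation was -0.31 for male and female T4.T5 and 0.037 for ChAT and Gad1. It was 0.012 for ChAT and VGlut and 0.11 for Gad1 and VGlut. The median over all pairs cannot tell whether same-numbered libraries of a single pair shared samples. With the replicate block 674 of all genes were called for the protocols in R1-6, against 1103 without it.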

Other observations

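The 47 sub-optimal libraries entered no comparison. Rop lay between 0 and 109 TPM in them, with a median of 24.6 TPM, and was below all optic lobe libraries that passed in 13 of them. In 2 of the 47, both from the second Muscles_Head driver, brp was below all of those optic lobe libraries. The 2 sub-optimal photoreceptor libraries had 3974 and 5575 TPM of Rim and 8.24 and 17.0 TPM of Rop.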
